A study of Mus musculus with 16 samples.

Results

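The aryl hydrocarbon receptor pathway was followed through 9 genes in mouse embryonic stem cells (mESCs) that lost RUVBL2. The set holds the receptor Ahr, its partner Arnt, the repressors Ahrr and Tiparp, and the enzyme genes Cyp1a1, Cyp1a2, Cyp1b1, Nqo1 and Aldh3a1. They were taken by name from the 55335 genes of the expression tables, and they had been chosen for the rise of several of them after 6 h of auxin. The values at 0 h and 6 h are therefore given as a description without a test, and tests were run only between libraries of other times. Of the 9 genes, 8 passed the filter on low counts, which left 15155 genes in all, and Cyp1a2 did not pass. Cyp1b1 passed through its counts at 6 h alone, Cyp1a1 through 6 and 48 h, and Ahrr through 6, 12 and 48 h, so these 3 were kept because of the times at which they were high.

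The cells were V6.5 mESCs in which RUVBL2, an ATPase of the AAA+ family, was fused to an auxin-inducible degron and GFP, together with a doxycycline-inducible OsTIR1, the plant protein that directs the tagged protein to the proteasome once auxin is present. Mock cells received neither agent, cells at 0 h had only doxycycline (Dox, 2 µg/ml for 24 h), and the other cells then had 500 µM auxin added for 0.5, 1, 6, 12, 24 or 48 h. All 8 conditions carry the tagged allele, and each had 2 poly(A) RNA libraries, 16 in all, which the study's methods describe as technical duplicates. The p-values thus measure the spread between libraries, which may be technical. The line came from selected clones homozygous for the tag. Every auxin library had also had doxycycline, so a comparison with Mock holds both agents. The auxin was indole-3-acetic acid, and no libraries from auxin-treated cells that keep RUVBL2 were analysed here, so that the effects of auxin and of RUVBL2 loss cannot be told apart. Time on auxin and total time on doxycycline also grow together.

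AHR is a ligand-activated transcription factor of the bHLH-PAS family that waits in the cytoplasm in a complex with the chaperone HSP90. Upon binding a ligand, such as dioxin, a polycyclic hydrocarbon or an indole derived from tryptophan, it enters the nucleus, pairs with ARNT and binds a DNA element with the core GCGTG, called the xenobiotic or dioxin response element. Its best known targets are the cytochrome P450 genes Cyp1a1, Cyp1a2 and Cyp1b1, whose enzymes oxidise aromatic compounds and many AHR ligands, and the feedback genes Ahrr and Tiparp, whose products restrain the receptor. Indole-3-acetic acid belongs to the indoles that have been described as AHR ligands.

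Total counts were 11666732 to 13924958 per library, so that 3 counts corresponded to 0.214 to 0.256 CPM (counts scaled to a common library size). Across the tested genes the log2 CPM of the 2 libraries of a condition correlated with r of 0.9889 to 0.9908, and the chi-square of their counts was 1.57 to 2.65 per degree of freedom, above counting noise in every pair. The 12 pluripotency markers summed to between 10700 and 13200 TPM (transcript levels scaled by gene length and depth) in every library. Single markers moved more than the sum. Lin28a went from 116 CPM at 1 h to 12.7 at 48 h, and Nanog from 1140 CPM at 1 h to 512 at 24 h. At 24 h against Mock, 6 of the 12 were called lower and 0 higher, where 22.4% of all genes were lower and 22.4% higher. The cells had been grown with irradiated embryonic fibroblasts as feeders, and the study's methods describe a harvest after passages off these feeders. The 26 fibroblast markers summed to 21.9 to 40.6 TPM per library. The bulk libraries cannot tell fewer cells of a type from less RNA per cell.

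The 250 bases before the start site of the RefSeq table are shown for Cyp1a1, Cyp1b1 and Ahrr, the members with the steepest profiles at 6 h, because this is where the receptor's core element could be looked for. They come from the RefSeq promoter table of GRCm38.p6, which matched 7 of the 9 genes; Ahr and Aldh3a1 were not matched. The sequences run 5′ to 3′ on the strand of the gene, Cyp1a1 from chr9:57697363-57697612 on the plus strand, Cyp1b1 from chr17:79715062-79715311 on the minus strand and Ahrr from chr13:74292332-74292581 on the minus strand. The Cyp1a1 window ends at the start of the shorter of its 2 annotated transcripts (position 57697613), 9685 bases inside the gene's full span, while those of Cyp1b1 and Ahrr end at the edge of the span. Capitals mark GCGTG, or CACGC where the core lies on the opposite strand.
Cyp1a1: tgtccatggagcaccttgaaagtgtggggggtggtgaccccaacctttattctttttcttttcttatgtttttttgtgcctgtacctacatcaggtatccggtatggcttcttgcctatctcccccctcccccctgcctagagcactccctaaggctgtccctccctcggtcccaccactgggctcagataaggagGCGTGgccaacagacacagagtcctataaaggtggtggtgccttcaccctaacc
Cyp1b1: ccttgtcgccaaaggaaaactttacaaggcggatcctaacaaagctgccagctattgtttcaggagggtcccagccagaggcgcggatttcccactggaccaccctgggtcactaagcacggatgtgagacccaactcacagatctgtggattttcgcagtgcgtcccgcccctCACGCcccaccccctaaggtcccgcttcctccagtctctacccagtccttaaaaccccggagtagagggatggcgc
Ahrr: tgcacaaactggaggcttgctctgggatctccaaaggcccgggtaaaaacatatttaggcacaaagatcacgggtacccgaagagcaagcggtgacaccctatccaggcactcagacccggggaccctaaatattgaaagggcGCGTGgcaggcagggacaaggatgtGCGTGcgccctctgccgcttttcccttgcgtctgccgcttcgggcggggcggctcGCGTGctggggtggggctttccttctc
In the full windows of 300 bases, from 250 before to 50 after the start, Cyp1a1 had 1 core, 54 bases before the start. Cyp1b1 had 1 on the opposite strand at 76 bases, and Ahrr had 3, at 107, 82 and 27 bases. The last of these also matched TNGCGTG, the longer form of the element. Arnt had 1 core at 29 bases and Tiparp 1 on the opposite strand at 170 bases, while the windows of Cyp1a2 and Nqo1 had none. Both strands were searched. GCGTG was present in 32.4% and TNGCGTG in 5.07% of all 32851 windows of this length, and the 5 of 7 genes with the core are a count of letters, not of binding. The known enhancer of Cyp1a1 lies further upstream than these windows reach.

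Cyp1a1 encodes the cytochrome P450 that is the most widely used readout of AHR activity. Its expected counts were 2 and 2 in Mock, 5 and 11 with Dox alone (0 h), 2 and 3 after 0.5 h of auxin, 20 and 8 after 1 h, 713 and 731 after 6 h, 18 and 8 after 12 h, 3 and 4 after 24 h, and 43 and 46 after 48 h. The 6 h libraries stood far above all others, the 48 h libraries were second and did not overlap any other time, and the 24 h libraries were back near Mock. In CPM after TMM normalization this was 53.3 and 52.3 at 6 h, against 0.358 and 0.811 at 0 h. The log2 fold change at 6 h against 0 h was 6.48 (SE 0.22), a fold of 89.3 and the second largest increase among the 15155 genes, where the 95% interval of the ratio of counts ran from 55.4 to 158 for counting error. At 12 h against 6 h the log2 fold change of Cyp1a1 was -5.64. The gene (ENSMUSG00000032315.6) lies on chromosome 9 of GRCm38 from 57687928 to 57703824 on the plus strand.

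Cyp1a2, which encodes the related cytochrome P450 of the liver, lies beside Cyp1a1. The genes face away from each other, with 4224 bases and 0 annotated genes between their full spans (Cyp1a2: ENSMUSG00000032310.4, from 57676937 to 57683703 on the minus strand). From the start of the shorter Cyp1a1 transcript the distance is 13909 bases. Cyp1a2 had 1 and 0 counts in Mock, 0 and 2 after 6 h, 2 and 0 after 12 h, and 0 in the 10 other libraries. Its level was at or under 3 counts everywhere, so no fold was computed and a change within such low counts could not be detected at this depth. An increase to the level of Cyp1b1 at 6 h (84 and 102 counts) would have been seen. The levels of the neighbours at 6 h were far apart, with 60.5 ± 0.715 TPM for Cyp1a1 and 0.114 ± 0.161 TPM for Cyp1a2 (SD, n = 2).

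Cyp1b1 encodes a cytochrome P450 expressed in many tissues outside the liver, fibroblasts among them (ENSMUSG00000024087.4, chromosome 17 from 79701537 to 79715061, minus strand). It had 84 and 102 counts at 6 h, against 2 and 3 at 0 h. No library outside 6 h held more than 8 counts, with 0 and 0 in Mock, 5 and 5 after 12 h, and 7 and 7 after 48 h. The log2 fold change at 6 h against 0 h was 5.15 (SE 0.55), and the ratio of counts had a 95% interval from 15.7 to 116. Against Mock, where no count was seen, Cyp1b1 at 6 h was at least 29.3-fold higher with 3 counts per library as the floor. It was the seventh largest increase of all genes at 6 h against 0 h, and at 12 h against 6 h the log2 fold change was -4.04.

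Ahrr encodes the AHR repressor, which competes with AHR for ARNT and for the response element (ENSMUSG00000021575.16, chromosome 13 from 74211118 to 74292331, minus strand). Its counts were 1 and 4 in Mock, 2 and 3 with Dox alone, 6 and 10 after 0.5 h of auxin, 4 and 7 after 1 h, 72 and 81 after 6 h, 17 and 11 after 12 h, 6 and 12 after 24 h, and 53 and 38 after 48 h. Unlike the cytochromes, Ahrr at 48 h stood at 64.7% of its mean CPM at 6 h, where Cyp1a1 was at 6.65% and Cyp1b1 at 8.16%. At 6 h against 0 h the log2 fold change of Ahrr was 4.87 (SE 0.46), a fold of 29.2, with an interval of the ratio of counts from 12.8 to 95.7.

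Nqo1 encodes a quinone reductase and is a target shared by AHR and NRF2, the transcription factor of the oxidative stress response. At 6 h it was the most abundant member in TPM (ENSMUSG00000003849.8, chromosome 8 from 107388225 to 107403206, minus strand). Its CPM were 34.4 and 36.3 in Mock, 38.9 and 35.2 with Dox alone, 37.0 and 36.5 after 0.5 h of auxin, 42.6 and 35.8 after 1 h, 82.5 and 86.5 after 6 h, 64.8 and 62.8 after 12 h, 44.5 and 44.0 after 24 h, and 80.7 and 73.5 after 48 h. The libraries of 6, 12, 24 and 48 h all lay above every earlier library, with high points at 6 and 48 h and a low point between them at 24 h. The log2 fold change at 6 h against 0 h was 1.19 (SE 0.07).

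Aldh3a1 encodes an aldehyde dehydrogenase that oxidises aromatic and fatty aldehydes (ENSMUSG00000019102.10, chromosome 11 from 61207537 to 61218421, plus strand). It had 2.01 and 2.54 CPM in Mock, 2.36 and 2.87 with Dox alone, 3.05 and 2.96 after 0.5 h of auxin, 2.88 and 2.13 after 1 h, 9.56 and 7.51 after 6 h, 14.5 and 13.8 after 12 h, 26.0 and 24.7 after 24 h, and 19.4 and 19.2 after 48 h. It kept climbing through the time at which the cytochromes had returned to low counts, and its highest point came at 24 h. At 6 h against 0 h the log2 fold change was 1.70 (SE 0.18), and at 12 h against 6 h it was 0.73.

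The receptor itself ran the other way. Ahr (ENSMUSG00000019256.17, chromosome 12 from 35497974 to 35535038, minus strand) had 5.33 and 5.23 CPM in Mock, 5.73 and 4.42 with Dox alone, 5.86 and 5.47 after 0.5 h of auxin, 6.16 and 5.63 after 1 h, 3.21 and 3.93 after 6 h, 1.98 and 2.98 after 12 h, 1.19 and 1.89 after 24 h, and 2.43 and 3.46 after 48 h. The 8 libraries up to 1 h lay above the 8 later ones without overlap. On the scale of TPM, which takes gene length into account, Ahr at 6 h was 1.85 ± 0.267 and its partner Arnt 40.3 ± 2.05 (SD, n = 2).

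Arnt encodes the dimer partner of AHR, which also pairs with the hypoxia-inducible factors (ENSMUSG00000015522.18, chromosome 3 from 95434388 to 95497240, plus strand). It had 108 and 109 CPM in Mock, 105 and 97.3 after 6 h of auxin, and 136 and 145 after 12 h, its highest point. Over the other times it ran from 104 to 121 CPM. Its levels thus spanned a far narrower range than those of the other 7 tested genes, and after 12 h alone did both libraries stand clear of the rest.

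Tiparp encodes an ADP-ribosyltransferase that modifies AHR and limits its activity (ENSMUSG00000034640.9, chromosome 3 from 65528410 to 65555518, plus strand). Although it is a common AHR target, it was not higher at 6 h. Its CPM were 62.7 and 61.0 in Mock, 45.6 and 44.5 with Dox alone, 48.6 and 48.5 after 0.5 h of auxin, 39.2 and 36.4 after 1 h, 31.0 and 30.1 after 6 h, 29.5 and 24.9 after 12 h, 36.7 and 38.1 after 24 h, and 40.6 and 39.6 after 48 h. The Mock libraries were the highest, and the levels at 0 h, before any auxin, already lay below them. At 6 h against 0 h the log2 fold change was -0.56 (SE 0.07). Of the 16 expected counts of Tiparp, 13 were not whole, which RSEM gives where it divides reads among loci, and the gene overlaps a pseudogene on the opposite strand (4931440P22Rik). Strand use in counting was not given in the sources used here.

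**Figure D1:**
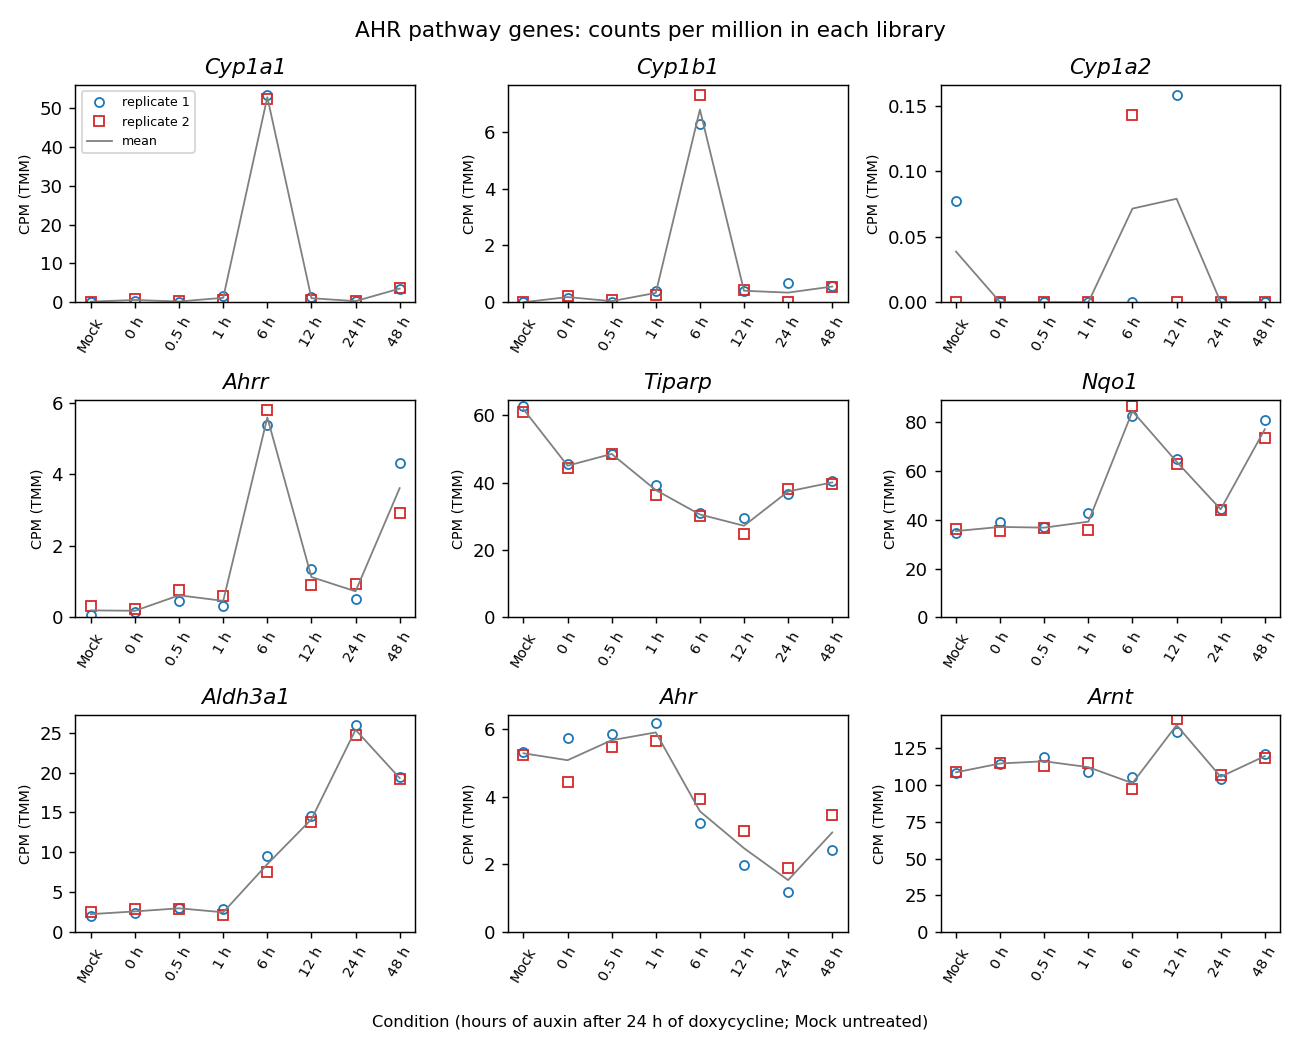
TMM-normalized CPM of the 9 genes in each library (vertical axis, own scale per gene, from 0) by condition (horizontal axis, Mock and hours of auxin after 24 h of doxycycline, not to scale); circles and squares are replicates 1 and 2 and the line joins their means. Cyp1a1, Cyp1b1 and Ahrr peak at 6 h, Aldh3a1 peaks at 24 h, and Ahr is lowest at 24 h.

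Of the 8 genes tested, 5 were past both thresholds in the higher direction at 6 h against 0 h and 0 in the lower direction, where 10.1% of all genes were higher and 5.7% lower. The genes were chosen on this contrast, so nothing is read from the count. Ahr had a log2 fold change of -0.51 and Arnt of -0.18 in it. The order of levels at 6 h in TPM was Nqo1 with 174 ± 6.04, Cyp1a1 with 60.5 ± 0.715, Arnt with 40.3 ± 2.05, Tiparp with 22.4 ± 0.434, Aldh3a1 with 14.0 ± 2.37, Cyp1b1 with 3.71 ± 0.40, Ahrr with 1.89 ± 0.102 and Ahr with 1.85 ± 0.267 (SD, n = 2 each). The last 2 of these overlapped in their libraries. At 0 h Cyp1a1 had been at 0.674 ± 0.368 TPM. At 6 h, 82.4% of the tested genes had less mean TPM than Cyp1a1, and 18.9% had less than Ahr.

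The summed level of the fibroblast markers was 40.6 and 39.1 TPM at 6 h, against 33.0 and 32.8 TPM at 0 h, and the 6 h libraries were the highest of the 16. Of 10 markers tested, 5 were past both thresholds in the higher direction at 6 h against 0 h and 0 in the lower, Pdgfra with a log2 fold change of 2.28, Col1a1 with 1.93, Pdgfrb with 1.81, Thy1 with 0.94 and Fbn1 with 0.66, where 10.1% of all genes were higher and 5.7% lower. Pdgfrb did not peak at 6 h, with mean levels of 5.52 CPM at 6 h, 9.35 CPM at 12 h, 15.2 CPM at 24 h and 9.03 CPM at 48 h. Nor did Pdgfra, with 2.16 CPM (6 h), 1.49 CPM (12 h), 2.00 CPM (24 h) and 2.63 CPM (48 h). Fbn1 was highest at 6 h, with 10.8 and 8.08 CPM, and no library of another time was above 6.81 CPM. Col1a1 was also highest at 6 h, with 1.12 and 1.14 CPM, against at most 0.893 CPM at other times. Thy1 had 4.86 and 5.5 CPM at 6 h and 4.19 and 5.46 CPM at 12 h, which overlap. The other 16 markers never exceeded 0.392 TPM in a library, with Fap and S100a4 at 0 in all. Among these 16, Col1a2, Col3a1, Dcn, Lum and Postn had a median of 0 TPM. Of the tested collagen and matrix genes, the median was 4.725 TPM for Mmp2, 3.81 for Col5a1, 2.455 for Loxl1, 1.37 for Fbn1 and 0.26 for Col1a1. The summed level at 48 h was 27.5 and 24.5 TPM, against 27 and 27.8 TPM at 24 h. The part of any feeder cells left after passaging in the 6 h values was not tested.

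The times of 12, 24 and 48 h were then compared with 1 h, which leaves out the libraries that chose the genes. These comparisons share the 1 h libraries. Ahrr passed the filter on low counts through 6, 12 and 48 h, so its call at 12 h is not independent of that filter. At 12 h against 1 h, 3 of 8 genes were called higher and 1 lower, against 15.7% and 14.1% of all genes. Aldh3a1 was higher by 2.49 on the log2 scale (SE 0.18, edgeR adjusted p = 2.4e-11), Nqo1 by 0.70 (SE 0.08, adjusted p = 2.7e-08) and Ahrr by 1.30 (SE 0.52, adjusted p = 0.037). Ahr was lower, with a log2 change of -1.25 (SE 0.24, adjusted p = 0.00011). Tiparp at -0.47 and Arnt at 0.33 passed the adjusted p (1.9e-05 and 3.9e-06) but not the fold threshold. Neither cytochrome was called, within wide limits. Cyp1a1 had 18 and 8 counts at 12 h and 20 and 8 at 1 h, with an interval of the ratio from 0.511 to 1.60, and Cyp1b1 had 5 and 5 counts at 12 h and 5 and 3 at 1 h, with an interval from 0.434 to 3.56. The Ahrr call rests on few reads and was lost with DESeq2 (adjusted p = 0.096), with limma on TPM, without the 0 h and 6 h libraries in the fit (adjusted p = 0.052), on the 4 libraries alone (0.063) and without replicate 1 of either time. Scaled to the dm6 reads listed per library, the median of all genes moved by -0.75, with 635 genes higher and 8593 lower, and Nqo1 then stood at -0.05 and Ahrr at 0.56. Without replicate 2 of 1 h, Nqo1 was at 0.58 and short of the fold threshold. The same scaling moved the median by -0.42 at 24 h and by -0.36 at 48 h against 1 h, and all values here, those of the gene lists included, are relative to the median of all genes.

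At 24 h against 1 h, Aldh3a1 was the 1 gene called higher of 8 and Ahr and Cyp1a1 were lower, where 20.3% of all genes were higher and 20.6% lower. Aldh3a1 was higher by 3.32 on the log2 scale (SE 0.16, adjusted p = 1.1e-14), a fold of 10 over 1 h. Ahr was at -1.92 (SE 0.27, adjusted p = 9.2e-07), or 0.264 of its level at 1 h. Cyp1a1 had 3 and 4 counts at 24 h, against 20 and 8 at 1 h, a log2 change of -1.98 (SE 0.55, adjusted p = 0.003), and the ratio of counts had an interval from 0.0908 to 0.577. That call was lost without replicate 1 of 1 h (-1.23, adjusted p = 0.14). Nqo1 was at 0.17 (SE 0.08, adjusted p = 0.061) and Ahrr at 0.68 (SE 0.57, adjusted p = 0.3), so neither was called at this time.

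At 48 h against 1 h, 4 of 8 genes were called higher, Aldh3a1, Ahrr, Cyp1a1 and Nqo1, and Ahr was lower, where 19.1% of all genes were higher and 18.7% lower. Ahrr and Cyp1a1 passed the filter on low counts in part through 48 h, so their calls are not independent of that filter. Ahrr was at 2.96 (SE 0.43, adjusted p = 1.7e-06), Aldh3a1 at 2.93 (SE 0.17, adjusted p = 2.8e-13), Cyp1a1 at 1.60 (SE 0.31, adjusted p = 8.9e-05) and Nqo1 at 0.97 (SE 0.07, adjusted p = 3.6e-11). Ahr was at -0.99 (SE 0.24, adjusted p = 0.00071). Tiparp and Arnt differed from 1 h by 0.08 and 0.10 on the log2 scale, with adjusted p of 0.33 and 0.094.

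The late times were also compared with each other, 48 h with 24 h and 24 h with 12 h. The time courses above were known when these comparisons were chosen, so their calls restate those profiles with an error and are no separate support for them. Of 8 genes at 48 h against 24 h, edgeR called 4 higher and 0 lower, where 12.2% of all genes were higher and 12.3% lower. At an unadjusted p under 0.05 edgeR had 5 higher and 1 lower, and DESeq2 called 4 and 0. Cyp1a1 had 43 and 46 counts at 48 h, against 3 and 4 at 24 h, a log2 change of 3.58 (SE 0.42, adjusted p = 1.7e-07) that ranked 44th among the increases of 15155 genes, with an interval of the ratio of counts from 5.73 to 31.5. Ahrr had 53 and 38 counts at 48 h, against 6 and 12 at 24 h, a log2 change of 2.28 (SE 0.39, adjusted p = 2.7e-05). Both genes had all 48 h libraries above all 24 h libraries, and both passed the filter on low counts in part through 48 h. Such separation was also seen for genes that were not called, Tiparp at 0.10 and Arnt at 0.18. Nqo1 was higher by 0.80 (SE 0.07, adjusted p = 2e-09). Ahr was higher by 0.93 (SE 0.30, adjusted p = 0.012), a call that was lost without replicate 1 of 24 h (0.65, adjusted p = 0.14) or replicate 2 of 48 h (0.65, adjusted p = 0.16). Cyp1b1, with 7 and 7 counts at 48 h and 8 and 0 at 24 h, was not called (0.74, SE 0.75, adjusted p = 0.43), and its interval of the ratio ran from 0.663 to 4.66. Aldh3a1 was at -0.39 (SE 0.12, adjusted p = 0.0066), short of the fold threshold.

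At 24 h against 12 h, Aldh3a1 was called higher (0.84, SE 0.12, adjusted p = 3.5e-06) and Cyp1a1 lower (-1.84, SE 0.56, adjusted p = 0.009), the only calls among 8, where 8.99% of all genes were higher and 10.8% lower. The Cyp1a1 call was lost without replicate 1 of 12 h (-1.19, adjusted p = 0.2) or of 24 h (-1.71, adjusted p = 0.056). Nqo1 at -0.53 and Arnt at -0.41 passed the adjusted p (2.3e-06 and 2.5e-07) but not the fold threshold.

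**Figure D2:**
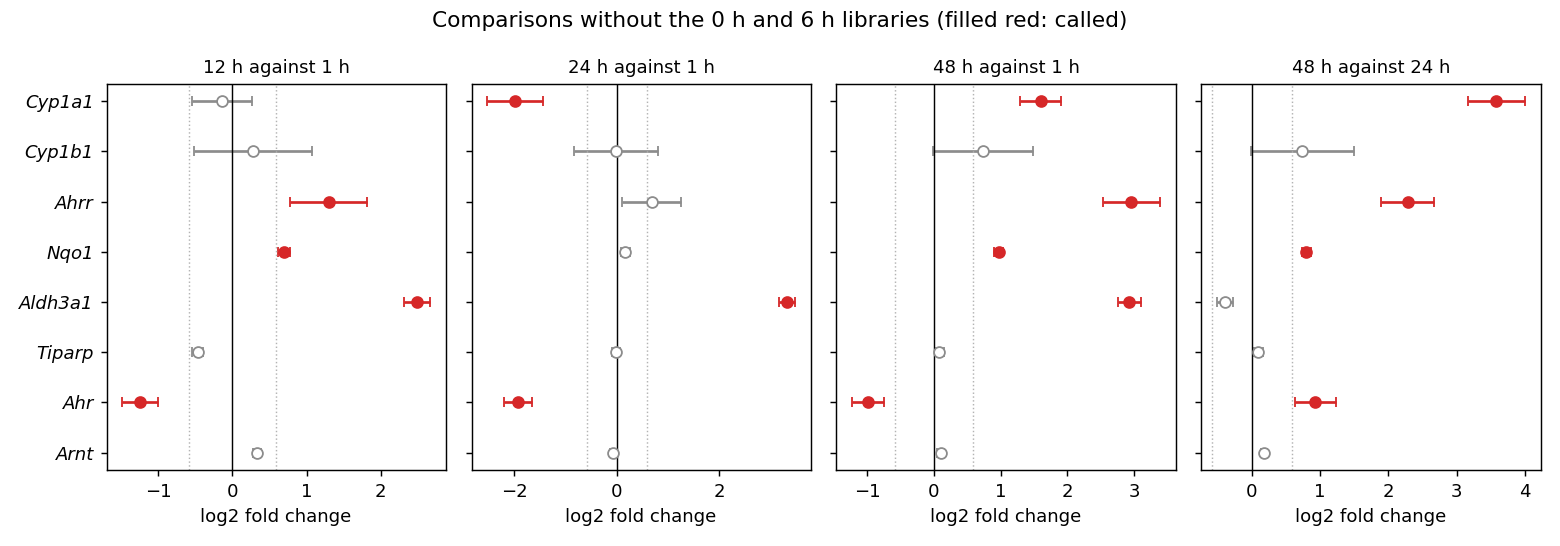
Log2 fold changes (horizontal axis, bars: SE) of the 8 tested genes (rows) in 4 comparisons that use no 0 h or 6 h library; filled red points passed an adjusted p under 0.05 and a fold over 1.5, whose log2 is marked by the dotted lines. Ahr lies left of 0 at 12, 24 and 48 h against 1 h, and Cyp1a1, Ahrr, Nqo1 and Ahr lie right of 0 at 48 h against 24 h.

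Comparisons with Mock add the cells that had no doxycycline. They share the Mock libraries. At 0.5 h edgeR and DESeq2 called 0 of 8 genes, with 2 at an unadjusted p under 0.05 in edgeR, where 7% of all genes were called higher and 4.86% lower. Tiparp at -0.35 (SE 0.07, edgeR adjusted p = 0.00022) passed the adjusted p but not the fold threshold. Ahrr passed the fold but not the adjusted p, with 6 and 10 counts at 0.5 h, against 1 and 4 in Mock (1.63, SE 0.69, adjusted p = 0.067). At 1 h, 2 were higher and 1 lower, against 7.38% and 5.59% of all genes. Cyp1a1 had 20 and 8 counts at 1 h, against 2 and 2 in Mock, a log2 change of 2.83 (SE 0.62, adjusted p = 0.00086), and the interval of the ratio ran from 2.63 to 29.5. Cyp1b1 had 5 and 3 counts at 1 h, against 0 and 0 in Mock, at least 1.42-fold higher with 3 counts per library as the floor. This bound is under the fold threshold of 1.5, as is that at 24 h (1.47). The Cyp1b1 call at 1 h was lost with limma on TPM at both pseudocounts (log2 changes of 0.23 and 1.45). It was also lost without either Mock library (5.13) or replicate 1 of 1 h (4.77). The calls of Cyp1b1 against Mock at 1, 12, 24 and 48 h rest on at most 8 counts in a library, and the one at 24 h on 8 and 0. Tiparp was the gene called lower at 1 h. Scaled to dm6 reads, which moved the median of all genes by 0.34 at 0.5 h and 0.56 at 1 h, 2 members were called higher at 0.5 h and 7 at 1 h, with 0 lower at either time.

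Cyp1a1 was also above Mock at 0 h, before auxin, with 5 and 11 counts against 2 and 2 in Mock. The log2 fold change was 1.85 (SE 0.72) and the interval of the ratio ran from 1.22 to 15.5, which is given as a description. Tiparp at 0 h was at -0.46 (SE 0.07) against Mock. Of the 8 genes, 1 was past both thresholds at 0 h against Mock, in the higher direction, where 5.19% of all genes were higher and 4.24% lower.

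At 12 h against Mock Ahrr, Cyp1a1, Cyp1b1, Nqo1 and Aldh3a1 were called higher and Ahr and Tiparp lower, 5 and 2 of 8, against 18.3% and 16.2% of all genes. At 24 h against Mock, Ahrr, Cyp1b1 and Aldh3a1 were higher and Ahr and Tiparp lower, 3 and 2 genes, and 22.4% of all genes were higher and 22.4% lower. Without replicate 1 of Mock 3 of these 5 calls were left, Ahrr (1.23, adjusted p = 0.15) and Cyp1b1 (adjusted p = 0.054) being lost, and limma on TPM also called 3. At 48 h against Mock, 5 genes were higher and 2 lower, beside 20.5% and 19.4% of all genes. Ahrr passed the filter on low counts in part through 12 and 48 h and Cyp1a1 through 48 h. Their calls at these times are not independent of that filter. At 48 h Cyp1a1 was at 4.43 (SE 0.47, adjusted p = 1.4e-08), Ahrr at 4.16 (SE 0.50, adjusted p = 8.3e-08) and Aldh3a1 at 3.08 (SE 0.17, adjusted p = 9.6e-14). Tiparp was lower in all 4 comparisons from 1 h on, with log2 changes of -0.71 (1 h), -1.18 (12 h), -0.73 (24 h) and -0.63 (48 h) and adjusted p up to 2.2e-08. Scaled to dm6 reads, however, it was at -0.13 (1 h), -0.55 (24 h) and -0.43 (48 h), short of the fold threshold. Ahr was lower at 12, 24 and 48 h, with log2 changes of -1.09, -1.76 and -0.83 and adjusted p of 0.00047, 3.3e-06 and 0.0034. The call at 48 h was lost without replicate 1 of 48 h (-0.61, adjusted p = 0.064).

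The members fell into distinct time courses when each was set against its own highest mean. Over the 8 condition means of log2 CPM, Pearson's r was 0.98 between Cyp1a1 and Cyp1b1, 0.95 between Ahrr and Nqo1, 0.86 between Ahrr and Cyp1a1, and -0.95 between Ahr and Aldh3a1. These coefficients describe 8 points that share their libraries, and the 6 h point carries most of the range of the cytochromes. At 24 h Nqo1 stood at 52.3% of its highest mean, Ahr at 26.1% and Aldh3a1 at its highest.

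**Figure D3:**
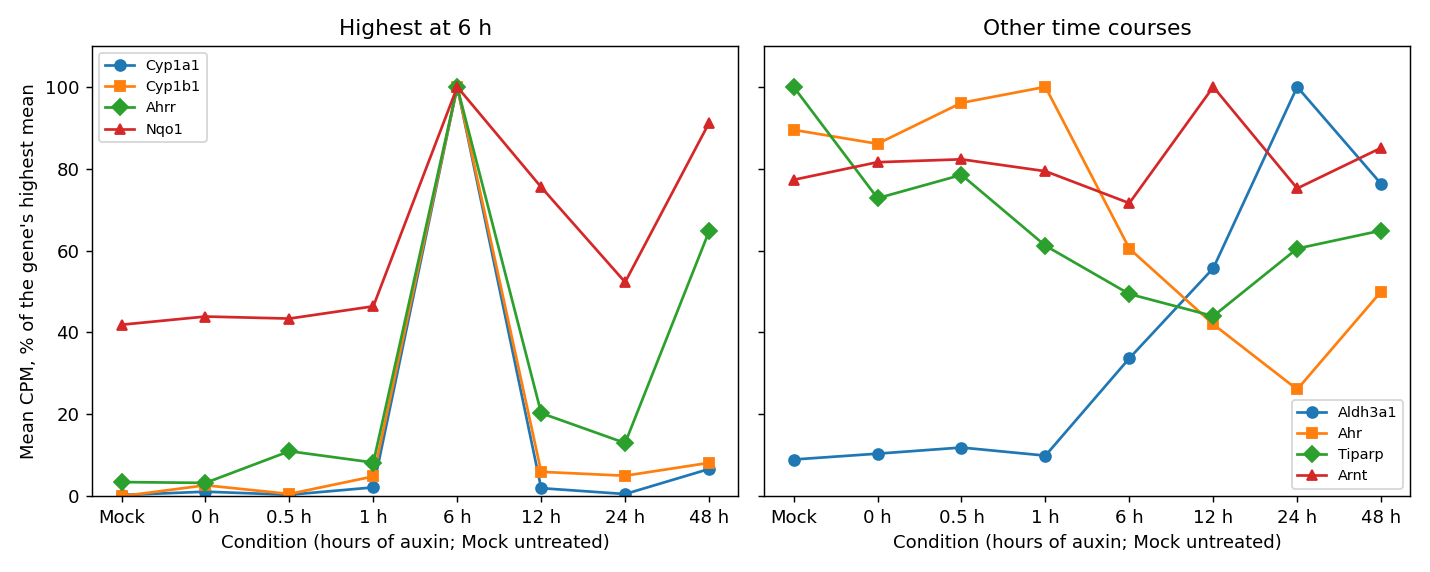
Mean CPM of each gene as a percentage of its own highest condition mean (vertical axis) by condition (horizontal axis, not to scale); points are means of 2 libraries. Cyp1a1, Cyp1b1, Ahrr and Nqo1 are highest at 6 h (left), of which Ahrr and Nqo1 stand at 64.7% and 91.2% at 48 h, while Ahr is at 26.1% when Aldh3a1 is highest at 24 h (right).

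The genes whose means ran most like those of a member were looked up among 10627 candidates over the same 8 conditions. Picking the 3 best of so many candidates on 8 points gives a high r by the search alone, and shared control was not tested. Over the 16 libraries r was lower for all of them, from 0.858 (Clock) to 0.993 (Tnfrsf1b). For Cyp1a1 they were Myorg (r = 0.969), Ciapin1 (0.955) and Tcf7l1 (0.947), and for Cyp1b1 Myorg (0.955), Tlx2 (0.945) and Tcf7l1 (0.933). Myorg had 78.1 CPM at 6 h and 38.5 CPM at 0 h, a far smaller difference than that of the cytochromes. For Ahrr they were Mtmr12 (0.973), Pcgf6 (0.955) and Clock (0.951), for Nqo1 Gstp2 (0.982), Grid2ip (0.972) and Iqgap1 (0.97), and for Aldh3a1 Tnfrsf1b (0.997), Kif13b (0.993) and Uap1l1 (0.993). For Ahr they were Fam210b (0.997), Micu2 (0.997) and Katnbl1 (0.995), and for Tiparp Id3 (0.99), Zfp472 (0.97) and Rrp12 (0.96).

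Since Nqo1 also answers to NRF2, it was set beside 27 other NRF2 targets and regulators, all of which were tested. Nqo1 was not ranked in the contrast of 6 h and 0 h, because it belongs to the genes chosen on it. In that contrast, given as a description, 4 of the 27 were past both thresholds in the higher direction and 0 in the lower. For all genes these shares were 10.1% and 5.7%, and the median of the 27 was 0.20. Unlike the 27, Nqo1 belongs to a set chosen for the rise at 6 h, so its rank among them is a description. At 12 h against 1 h the median of the 27 was -0.21 and their highest value 0.43, below the 0.70 of Nqo1. At that time 7 of the 27 were called lower and 0 higher, where 14.1% of all genes were lower and 15.7% higher. The lower ones included Slc7a11, the cystine transporter (-2.01), Gclm, a subunit of the enzyme that begins glutathione synthesis (-1.29), Hmox1, heme oxygenase 1 (-1.04), and Srxn1, sulfiredoxin (-1.02). At 1 h against Mock, 6 of the 27 were called higher and 0 lower, beside 7.38% and 5.59% of all genes. Hmox1 had 48 CPM in Mock, 105 at 1 h and 50.7 at 12 h, so it returned near Mock. In the same order, Gclm (82, 104 and 42.4 CPM), Srxn1 (28.7, 37.1 and 18.2) and Slc7a11 (2.01, 4.58 and 1.12) ended below Mock. At 12 h against Mock, 5 of the 27 were called higher and 4 lower, beside 18.3% and 16.2% of all genes. The ranks of Nqo1 given here are against 1 h and were not taken against Mock. At 48 h against 1 h 10 were called lower and 0 higher, beside 18.7% and 19.1% of all genes, with a median of -0.34 against 0.02 for all genes. At 24 h against 1 h, however, 4 were higher and 8 lower, beside 20.3% and 20.6% of all genes, and 5 stood above Nqo1. Nfe2l2, which encodes NRF2, was at 1.18 (SE 0.05, adjusted p = 9.8e-17) at 24 h against 1 h.

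**Figure D4:**
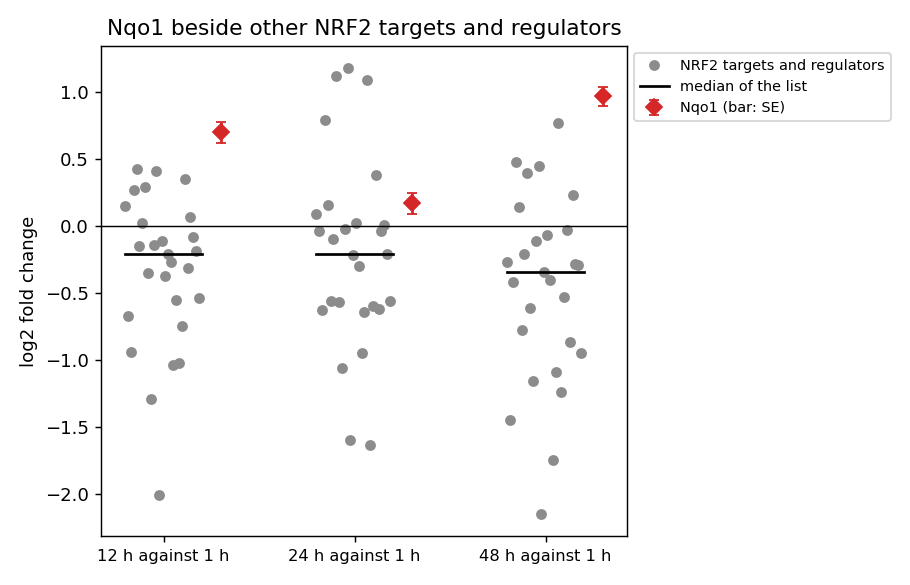
Log2 fold changes (vertical axis) of Nqo1 (red, bar: SE) and of 27 NRF2 targets and regulators (grey points, black line: median) in 3 comparisons with 1 h (horizontal axis). Against 1 h, Nqo1 lies above all 27 at 12 and 48 h, and below 5 of them at 24 h. At 1 h itself, 6 of the 27 were called higher than in Mock.

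Of 16 other genes of the AHR complex and its partners, 15 were tested, and 2 were higher and 1 lower at 12 h against 1 h, with a median of 0.12. These are 13.3% and 6.67% of the 15, beside 15.7% and 14.1% of all genes. Arnt2, a paralog of Arnt, was lower (0.927 CPM at 12 h, 5.94 CPM at 1 h, a log2 change of -2.66, SE 0.34, adjusted p = 4.7e-07). Epas1, which encodes the ARNT partner HIF2A, was higher by 1.33, and Ncoa2, a coactivator, by 0.85. Both were lower at 1 h than in Mock. Epas1 had 37.8 CPM in Mock, 16 at 1 h and 40.4 at 12 h, and Ncoa2 had 64.9, 40.2 and 72.3 CPM. At 12 h against Mock, 0 of the 15 were higher and 2 lower, beside 18.3% and 16.2% of all genes. Nrip1, a corepressor, was higher at 24 h against 1 h by 1.88 (SE 0.08, adjusted p = 7.2e-16). Of the 15, 4 were higher and 1 lower at 24 h against 1 h (26.7% and 6.67%, beside 20.3% and 20.6% of all genes), and 3 were higher and 1 lower at 48 h against 1 h (20% and 6.67%, beside 19.1% and 18.7%).

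Of 21 other genes described as AHR-responsive, 9 were tested, and 1 was called at 12 h against 1 h, where 15.7% of all genes were higher and 14.1% lower. That gene, called higher, was Cyp2s1, a cytochrome P450 that responds to dioxin (73.2 CPM at 12 h, 14.9 CPM at 1 h, a log2 change of 2.30, SE 0.10, adjusted p = 2.3e-15). At 24 h against 1 h 3 of the 9 were higher and 2 lower, where 20.3% of all genes were higher and 20.6% lower, with Cyp2s1 at 2.24, Gsta2, a glutathione transferase, at 1.87 and Nfe2l2 at 1.18 among the higher, and Vav3 at -2.10 among the lower. At 6 h against 0 h Cyp2s1 had 67.1 CPM at 6 h and 17.2 CPM at 0 h. Its means were 70.3 CPM at 24 h and 82.3 CPM at 48 h, so that, unlike Cyp1a1, it had no low point after 6 h.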

How the data were processed

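RNA-Seq libraries of 8 conditions, 2 each, were analysed, with conditions and replicates taken from the sample labels. Per the labels and methods, the authors used cutadapt 1.18 for trimming, STAR 2.7.3a for alignment to mm10 and RSEM 1.3.1 with GENCODE M23 for expression, after removal of duplicates, and DESeq2 1.24.0 for comparisons. The deposited expected counts are RSEM's estimates per gene, not normalized, and were rounded to whole numbers here. The deposited TPM are RSEM's levels per gene, corrected for length and depth. The authors' deposited comparisons (log2 fold changes and adjusted p-values) were not used.

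A quasi-likelihood model of edgeR 4.0.16 (R 4.3.3) was fitted to the 16 libraries with TMM and filterByExpr on condition (minimum count 10). It had 8 residual degrees of freedom. The coefficient of variation between libraries was 3.43%, which edgeR names biological, although the libraries are described as technical duplicates. Calls required a fold over 1.5 and an adjusted p (Benjamini-Hochberg over all 15155 genes) under 0.05. The SE is the log2 fold change over the square root of F. Intervals of ratios are exact (Clopper-Pearson, 95%) on summed counts, and these and the floor of 3 counts cover counting error only. The 10 tested comparisons use no 0 h or 6 h library, and another 10 were described only. The pipeline was tested on simulated data.

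The genes, the 5 lists (AHR complex, AHR-responsive, NRF2, pluripotency, fibroblast) and the tests were chosen with earlier results of these data known. All 9 members are named, and of each list up to 4 genes, those called with the largest change at 12 h against 1 h, else at 24 h, else the most abundant; the fibroblast markers past the thresholds at 6 h were named after their values were seen. For each member that was called in a test and reached 5 CPM in a condition, the 3 genes with the highest Pearson r over 8 condition means of log2 CPM (prior count 2) are named, predicted genes left out. Pluripotency genes so named had log2 fold changes at 12 h against 1 h of -1.04 (Lin28a), -0.79 (Zfp42) and 0.59 (Tdgf1), and Nanog had -1.16 at 24 h; of 12 in this list, 1 was higher and 2 lower at 12 h. Of the fibroblast list Pdgfrb had 2.17, Thy1 0.72 and Mmp2 -0.75 at 12 h, and Tagln -1.86 at 24 h.

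Alternatives were RLE scaling, scaling to the dm6 reads that the study lists per library (how Drosophila material entered these libraries was not given in the sources used here), DESeq2 1.42.0, limma 3.58.1 on log2(TPM + 1) and log2(TPM + 0.1) for genes of at least 1 TPM in 2 libraries, no filter, fits without the 0 h and 6 h libraries or on 4 libraries, the replicate number as a block, and leaving out each library. Coordinates are from GENCODE M21 of GRCm38, the build of mm10, matched by gene ID.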

Additional observations from a re-analysis of the deposited data

How the results depend on the processing

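The calls kept their direction and their side of the threshold for the members under RLE scaling, without a filter and with the replicate block, and the counts of genes and members called stayed within 1.5 times of those reported under these and under DESeq2, the 4 libraries alone and the fit without 0 h and 6 h. Same-numbered libraries did not deviate together (correlations of -0.08 to 0.06 over 28 pairs of conditions, 0 over 0.1), so the numbers do not pair samples, and the block changed no call. Scaling to dm6 reads moved the median of all genes by -0.75 at 12 h against 1 h, 0.35 at 24 h against 12 h, 0.34 at 0.5 h against Mock and 0.56 at 1 h against Mock, and the genes called were then 9228 against 4524, 4548 against 2995, 3379 against 1797 and 6419 against 1966 (higher and lower under dm6: 635 and 8593, 3792 and 756, 3128 and 251, 6277 and 142). Against 1 h it gave 1642 higher and 5692 lower genes (24 h) and 1485 higher and 5241 lower (48 h), and against Mock 2138 and 3424 (12 h), 4277 and 2639 (24 h), and 4229 and 2115 (48 h). With it 2 members were called at 0.5 h against Mock (0 otherwise) and 7 at 1 h against Mock (3 otherwise), and Nqo1 turned to -0.05 at 12 h against 1 h; the cause was not tested. At 24 h against Mock limma called 3 members with either pseudocount, against 5. Leaving out a library gave 0 to 1 members at 0.5 h against Mock, 1 without Mock replicate 2 (Ahrr, 2.85), and 3 to 4 at 24 h against Mock, 3 without Mock replicate 1. Against 1 h it gave 3 to 4 (12 h), 2 to 4 (24 h) and 5 (48 h), and 3 to 4 for 48 h against 24 h. Over single members, leaving out a library kept 295 results, lost 17 calls and gained 8; dm6 scaling lost 5 (Tiparp at 1, 24 and 48 h against Mock, and Ahrr and Nqo1 at 12 h against 1 h, the value of Nqo1 also changing sign) and gained 9, and moved 17 untested values against 0 h, limma lost 9 (pseudocount 1) and 5 (0.1), and DESeq2, the 4 libraries alone and the fit without 0 h and 6 h lost 1 each. Depth limits Cyp1b1 outside 6 h (at most 8 counts), Cyp1a1 at other times (at most 46), Ahrr and Cyp1a2.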
